A study of Mus musculus with 4 samples.

Results

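The genes described here are 10 genes of the T cell receptor complex and of T cells and the EL4 line, taken by symbol from the 46078 gene rows of the count table: Cd3e, Cd3d, Cd3g, Cd247, Trac, Trbc1, Trbc2, Lck, Thy1 and Cd5. All 10 were found, each in 1 row, and all 10 passed the filter on low counts. Poly(A) RNA was sequenced from 2 Il33flx libraries, of mice with the CD11c-cre transgene and loxP-flanked Il33 on both alleles, and 2 Ctrl libraries, of mice with CD11c-cre alone. The CD11c promoter drives Cre in dendritic cells (DCs) and in some other myeloid cells. All mice, Il33flx and Ctrl alike, carried tumours of EL4-Flt3 cells for 10 days; EL4 is a T lymphoma line of mouse origin. From spleen and mesenteric lymph node, cells were taken by flow cytometry as CD45+, CD11b+, MHC class II+, CD103+ and CD64-, so the gate used no marker that defines T cells. Most mouse T cells carry neither CD11b nor MHC class II and would not pass it, while some T cells do carry CD103. The sources used here give no ages and do not say whether a library held 1 animal or a pool, so the p-values reflect only how far these libraries differ, and that spread may be technical.

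The T cell receptor binds peptide on MHC molecules through a variable alpha and beta chain, whose constant parts are encoded by Trac and by Trbc1 or Trbc2. These chains have almost no part inside the cell, and the signal is passed on by the CD3 chains and the zeta chain, which carry tyrosine motifs called ITAMs. Lck, a kinase bound to the coreceptors CD4 and CD8, phosphorylates the ITAMs, and Zap70 then docks on them.

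Library totals were 67707682 and 69983532 gene counts in Il33flx 1 and 2, and 81217828 and 75094424 in Ctrl 1 and 2. The targeted gene Il33 had 4 and 0 counts in Il33flx, against 4 and 8 in Ctrl, too few to check the labels. Ctrl 1 stood apart from the other libraries: on the first principal component of log2 CPM, 49.97% of the variance, it lay at 70.1, against -26.2 and -25.2 for Il33flx 1 and 2 and -18.8 for Ctrl 2. Fold changes and list medians are therefore given with and without Ctrl 1, and in the fit without it the spread comes from the Il33flx pair alone, with Ctrl 2 assumed to vary alike. The sorted cells' own genes were abundant, with H2-Ab1 (MHC class II beta) at 33060 to 39030 CPM in Il33flx and 34610 to 42770 CPM in Ctrl (CPM, library-scaled read counts with TMM normalization).

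All 10 genes had lower mean levels in Il33flx than in Ctrl, and none passed the test. Their log2 fold changes, Il33flx over Ctrl, ran from -0.94 to -0.09, all 10 negative where 48.2% of all genes tested were, with a median of -0.51, while the median of all 14995 genes tested was 0.01. At an adjusted p below 0.05 in edgeR's quasi-likelihood test, 0 of the 10 were called, where 0.00667% of all genes tested were called in either direction. At an unadjusted p under 0.05 in edgeR stood 0 of the 10, against 3.26% of all genes. DESeq2 called 0 of the 10 (0.346% of all genes), with 2, Cd3e and Lck, at an unadjusted p under 0.05 (2.46%). In 6 of the 10 genes both Il33flx libraries read lower than both Ctrl libraries, which held for 14.9% of all genes tested, and in 0 did they both read higher (15.4%). Ctrl 1 was the highest of the 4 libraries for 9 of the 10 genes, against 34.2% of all genes. Without Ctrl 1 the median of the 10 was -0.17 and 8 of 10 log2 fold changes were negative, against 47.3% of all genes in that fit. With 1 library left out, 0 of the 10 were called each time, against 0.227% of all genes without Ctrl 1, 0% without Ctrl 2, 0.183% without Il33flx 1 and 0.00628% without Il33flx 2. With other normalizations or filters 0 of the 10 were called too, against at most 0.00869% of all genes, and with a block for the replicate number 0 against 0.22%. In bulk RNA, fewer cells of a type and less RNA per cell cannot be told apart, and which of the sorted cells held these transcripts was not tested.

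**Figure D1:**
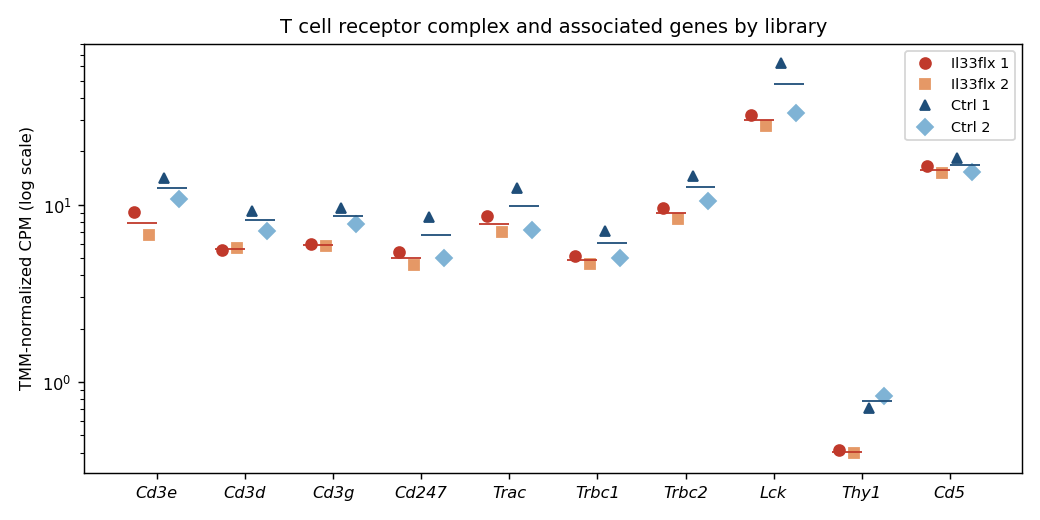
TMM-normalized CPM (log axis) of the 10 genes in each library. Points are libraries and short lines are group means (Il33flx left, Ctrl right). Lck spans 27.6 to 31.9 CPM in Il33flx and 32.6 to 62.4 CPM in Ctrl, and Thy1 lies below 1 CPM in every library.

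**Figure D2:**
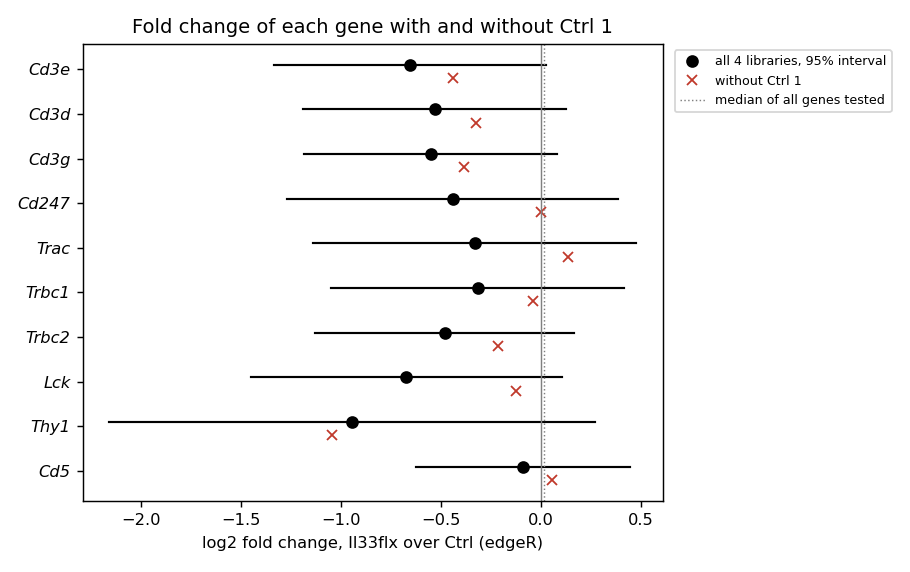
Log2 fold change of each gene, Il33flx over Ctrl, from edgeR. Circles with 95% intervals use all 4 libraries and crosses leave out Ctrl 1. Every interval spans 0, and the crosses of Trac and Cd5 lie above 0.

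The CD3 chains come first. Cd3e, Cd3d and Cd3g encode the epsilon, delta and gamma chains and lie in a row on chromosome 9 (GRCm38): Cd3g at 44969572 to 44980431 on the minus strand, Cd3d at 44981786 to 44987339 on the plus strand and Cd3e at 44998740 to 45009627 on the minus strand. Cd247, which encodes the zeta chain, lies on chromosome 1 at 165788681 to 165877277 on the plus strand. The ITAM coding stretches are shown because they are the signalling part that these chains share. A search of the GENCODE M21 coding sequences for tyrosine motifs of this form found 1 in Cd3e, 1 in Cd3d, 1 in Cd3g and 3 in Cd247. Capitals mark the codons of the paired tyrosines, and for Cd247 the stretch nearest the start is given.
Cd3e: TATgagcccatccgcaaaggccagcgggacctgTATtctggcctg
Cd3d: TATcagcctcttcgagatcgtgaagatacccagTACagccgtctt
Cd3g: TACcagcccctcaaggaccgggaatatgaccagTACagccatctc
Cd247: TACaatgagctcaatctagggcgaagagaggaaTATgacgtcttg

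Cd3e read 9.11 and 6.69 CPM in Il33flx 1 and 2, against 14.1 and 10.8 CPM in Ctrl 1 and 2. The groups did not overlap, and libraries of the same group differed by 1.36-fold in Il33flx and 1.30-fold in Ctrl. The log2 fold change was -0.65 ± 0.28 (SE; 95% interval -1.33 to 0.03; unadjusted p = 0.0572, adjusted p = 0.995, edgeR), and without Ctrl 1 it was -0.44. Cd3d read 5.57 and 5.69 CPM in Il33flx, against 9.16 and 7.10 CPM in Ctrl. Its log2 fold change was -0.53 ± 0.27 SE (adjusted p = 0.995, edgeR), and -0.33 without Ctrl 1. Again both Il33flx libraries were below both Ctrl libraries, and here the Il33flx libraries lay close together. Cd3g read 5.98 and 5.85 CPM in Il33flx, against 9.56 and 7.76 CPM in Ctrl. Its log2 fold change was -0.55 ± 0.26 SE (adjusted p = 0.995, edgeR), and -0.39 without Ctrl 1. The 3 neighbouring genes thus had the same order of libraries at group level, with Ctrl 1 highest, Ctrl 2 next and Il33flx below. Of the 10 genes, 5 had this order, Trbc2 and Lck being the others, where 11.2% of all genes tested had it.

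Cd247 read 5.38 and 4.58 CPM in Il33flx, against 8.51 and 5.01 CPM in Ctrl. The groups overlapped, since Ctrl 2 lay between the Il33flx libraries. Its log2 fold change was -0.44 ± 0.34 SE (adjusted p = 0.995, edgeR), and 0.00 without Ctrl 1. The count of Cd247 is uncertain, because 3213 of its 5329 exonic bases overlap exons of other genes, among them Pou2f1 on the opposite strand, and no source used here gives the strand setting of the counting. Summed over the 4 CD3 genes, levels were 26.0 and 22.8 CPM in Il33flx, against 41.3 and 30.7 CPM in Ctrl. The log2 ratio of the group means was -0.56, and -0.32 without Ctrl 1.

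The stretches before the start sites of Cd3e, Cd3d and Cd3g are shown because these neighbours had similar profiles over the libraries. They are RefSeq promoter sequences of GRCm38.p6, up to 250 bases before the start and without annotated exon bases. Capitals mark matches, on either strand, to short core motifs of factor families known in T cells: AGGAAG for ETS, TGNGGT for RUNX, TCAAAG for TCF, AGATAA for GATA and CAGNTG for E proteins.
Cd3e, chr9:45009628-45009861, minus strand: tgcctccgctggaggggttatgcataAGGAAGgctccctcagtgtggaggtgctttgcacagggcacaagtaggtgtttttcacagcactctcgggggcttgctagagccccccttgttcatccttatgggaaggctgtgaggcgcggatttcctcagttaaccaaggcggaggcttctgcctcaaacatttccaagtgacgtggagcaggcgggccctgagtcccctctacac
Cd3d, chr9:44981536-44981785, plus strand: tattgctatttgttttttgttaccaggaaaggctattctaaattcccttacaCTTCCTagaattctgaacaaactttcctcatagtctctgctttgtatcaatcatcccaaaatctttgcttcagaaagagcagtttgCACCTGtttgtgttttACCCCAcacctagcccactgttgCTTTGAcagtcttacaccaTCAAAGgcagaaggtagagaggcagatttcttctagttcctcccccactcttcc
Cd3g, chr9:44980432-44980681, minus strand: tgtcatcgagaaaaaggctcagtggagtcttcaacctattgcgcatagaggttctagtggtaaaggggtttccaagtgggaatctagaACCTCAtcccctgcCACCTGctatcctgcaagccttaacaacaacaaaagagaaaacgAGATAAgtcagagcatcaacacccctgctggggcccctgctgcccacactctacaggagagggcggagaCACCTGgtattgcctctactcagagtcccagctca
No match overlapped another. Cd3e held 1 ETS match. Cd3d held 1 ETS, 1 RUNX, 2 TCF and 1 E protein match, and Cd3g held 1 RUNX, 1 GATA and 2 E protein matches. Of 32851 promoter stretches of 250 bases, 29.5% held the ETS letters, 40.1% RUNX, 13.8% TCF, 9.99% GATA and 44.8% E protein. The matches are a description of the letters and were not tested for binding.

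The constant region genes of the receptor chains followed. Trac, the alpha chain constant gene (chromosome 14, 54220521 to 54224206, plus strand), read 8.64 and 6.98 CPM in Il33flx, against 12.5 and 7.17 CPM in Ctrl. The high value was that of Ctrl 1, and Ctrl 2 lay within the range of the Il33flx libraries. The log2 fold change was -0.33 ± 0.34 SE (95% interval -1.14 to 0.48, adjusted p = 0.995, edgeR). Without Ctrl 1 its sign turned, to 0.13. Trbc1 and Trbc2, the alternative beta chain constant genes, lie on the plus strand of chromosome 6, at 41538218 to 41539881 and at 41546730 to 41548352. Trbc1 read 5.13 and 4.603 CPM in Il33flx, against 7.09 and 5.03 CPM in Ctrl, with a log2 fold change of -0.32 ± 0.30 SE (-0.04 without Ctrl 1). Trbc2 read 9.55 and 8.33 CPM in Il33flx, against 14.5 and 10.4 CPM in Ctrl, with a log2 fold change of -0.48 ± 0.27 SE (-0.21 without Ctrl 1). The groups overlapped for Trbc1 and not for Trbc2, and the adjusted p was 0.995 for each (edgeR).

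Counts of Trbc1 and Trbc2 are uncertain, because the genes are near copies. Their coding sequences of 518 bases differed at 23 aligned bases, an identity of 95.6%, with an identical run of 259 bases. Of all 50-base stretches in their transcripts, 40.5% of those of Trbc1 and 44% of those of Trbc2 occurred in the other gene, and reads that aligned to more than 1 place had their own summary row in the table. The stretch that holds most of the differences, coding bases 400 to 489 of each gene, is shown because reads over it can be assigned. Capitals mark the 14 bases that differ.
Trbc1: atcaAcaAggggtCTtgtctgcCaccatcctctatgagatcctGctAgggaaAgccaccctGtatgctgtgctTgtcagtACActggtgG
Trbc2: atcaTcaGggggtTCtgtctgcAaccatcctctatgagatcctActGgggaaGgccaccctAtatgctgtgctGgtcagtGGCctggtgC
Of the counts assigned to either gene, Trbc2 took 65.1% in Il33flx 1 (95% exact interval 62.1 to 68) and 64.4% in Il33flx 2 (61.2 to 67.5), against 67.2% in Ctrl 1 (64.9 to 69.5) and 67.5% in Ctrl 2 (64.7 to 70.2). The intervals overlapped between all libraries. PCR copies are not independent molecules, and such intervals take in counting error alone.

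The variable segments show how the receptor counts were made up. A rearranged beta chain transcript holds 1 variable segment and the constant region of Trbc1 or Trbc2. Of the 21 Trbv rows, 19 had counts in Il33flx 1 and 19 in Il33flx 2, against 20 in Ctrl 1 and 18 in Ctrl 2. Their summed counts were 671 and 596 in Il33flx, against 1000 and 769 in Ctrl. Per 100 counts of Trbc1 and Trbc2 these were 64.8 and 65.1 in Il33flx, against 60.3 and 66.1 in Ctrl, so Trbv and Trbc counts stood in a similar ratio in all 4 libraries. No segment held most of the counts in any library.

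The leading segment was not the same in all libraries. It was Trbv13-2 in Il33flx 1 with 12.2% of Trbv counts (95% exact interval 9.84 to 14.9) and Trbv1 in Il33flx 2 with 13.6% (10.9 to 16.6). In Ctrl 1 it was Trbv13-2 with 12.5% (10.5 to 14.7), and in Ctrl 2 it was Trbv15 with 15.0% (12.5 to 17.7). Each leader was picked from the same counts, and its interval does not take in that choice. In Ctrl 1, Trbv1 lay close behind with 10.4%. Each library thus spread its beta chain counts over many segments, as the plot of segment shares shows. Trbv15 had 48 and 50 counts in Il33flx, against 90 and 115 in Ctrl, without overlap (log2 fold change -0.96 ± 0.43 SE, adjusted p = 0.995, edgeR, and -1.13 without Ctrl 1). Trbv13-2 had 82 and 53 counts in Il33flx, against 125 and 65 in Ctrl, with overlap (log2 fold change -0.38 ± 0.51 SE, adjusted p = 0.995, edgeR, and 0.15 without Ctrl 1). Of 16 Trbv segments tested, 0 were called (0.00667% of all genes) and 0 had an unadjusted p under 0.05 (3.26%) in edgeR. Among these 16, 13 had a negative log2 fold change (48.2% of all genes), 5 were lower without overlap (14.9%) and 1 was higher (15.4%). Their median was -0.29, and 0.00 without Ctrl 1. Alpha chain segments gave fewer counts, with 144 and 109 Trav counts in Il33flx, against 220 and 169 in Ctrl.

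**Figure D3:**
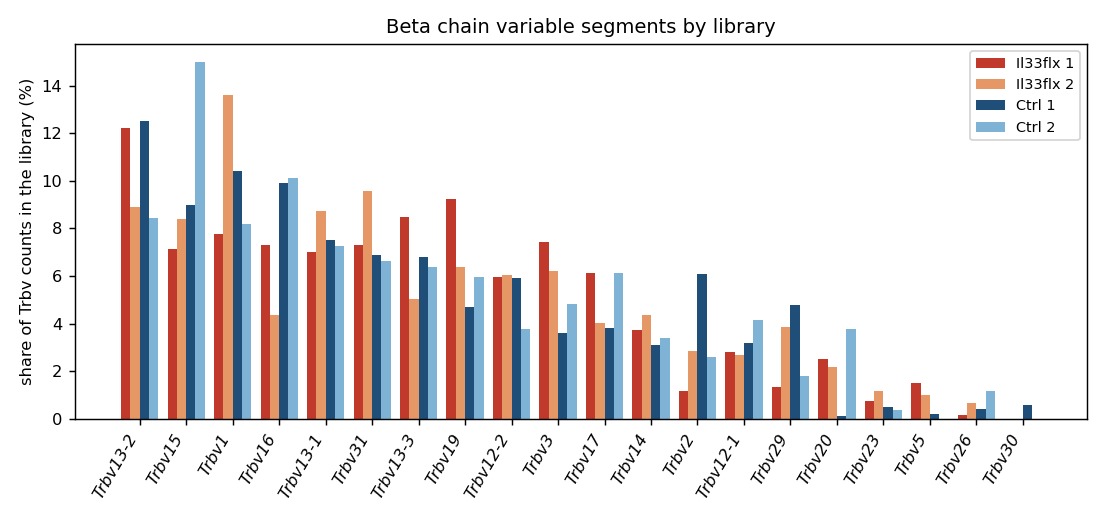
Share of each library's Trbv counts (percent) taken by each beta chain variable segment with any count, ordered by summed counts. Bars are single libraries. The highest share is 15.0%, that of Trbv15 in Ctrl 2, and no segment dominates a library.

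Genes of the gamma delta receptor, the alternative to alpha and beta chains, had low counts. Trdc, the delta chain constant gene, had 25 and 18 counts in Il33flx, against 38 and 24 in Ctrl. Tcrg-C1 had 32 and 28 counts in Il33flx, against 31 and 108 in Ctrl, and Tcrg-C2 had 106 and 214 in Il33flx, against 183 and 349 in Ctrl. Both were highest in Ctrl 2, where the CD3 genes, Trac, Trbc1 and Trbc2 were highest in Ctrl 1. A further gamma constant gene, Tcrg-C4, named after its values were seen, had 105 and 71 counts in Il33flx, against 41 and 179 in Ctrl, and was also highest in Ctrl 2. The gamma segment Trgv2 had 44 and 63 counts in Il33flx, against 14 and 185 in Ctrl, so the Ctrl libraries lay on either side of the Il33flx libraries. Without Ctrl 2 the log2 fold change of Trgv2 was 2.04, against -0.80 with all libraries, and that of Tcrg-C1 was 0.06, against -1.11 (adjusted p = 0.995 for each with all libraries, edgeR). Without Ctrl 1 they were -1.69 for Trgv2 and -1.75 for Tcrg-C1. Cd163l1, a scavenger receptor gene of gamma delta T cells, had 20 and 16 counts in Il33flx, against 9 and 17 in Ctrl. Of 5 tested genes of this list 0 were called (0.00667% of all genes) and 4 had a log2 fold change below 0 (48.2%). The list median was -0.42 (-0.92 without Ctrl 1).

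Lck lies on the minus strand of chromosome 4 at 129548344 to 129573641, and its RefSeq table entry has 2 start sites, which gene counts do not tell apart. It had the highest CPM of the 10 genes, 31.9 and 27.6 in Il33flx, against 62.4 and 32.6 in Ctrl. Ctrl 1 read 1.91-fold above Ctrl 2, and Ctrl 2 lay just above Il33flx 1. The log2 fold change was -0.67 ± 0.32 SE (95% interval -1.45 to 0.10, unadjusted p = 0.0789, adjusted p = 0.995, edgeR) and -0.12 without Ctrl 1. Without Ctrl 2, so against Ctrl 1 alone, it was -1.07 (unadjusted p = 0.00245, adjusted p = 0.119, edgeR), with the spread taken from the Il33flx pair alone and the lone Ctrl 1, which stands apart, assumed to vary alike. In that fit 7 of the 10 genes had an unadjusted p under 0.05, as did 20.6% of all genes.

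Thy1, the gene of the surface glycoprotein Thy-1 that marks mouse T cells (chromosome 9, 44043384 to 44048579, plus strand), had the lowest counts of the 10. It had 29 and 28 counts in Il33flx, against 55 and 63 in Ctrl, which is 0.411 and 0.395 CPM against 0.717 and 0.838 CPM. The groups did not overlap, and Thy1 was the only gene of the 10 that was not highest in Ctrl 1. The log2 fold change was -0.94 ± 0.50 SE (95% interval -2.16 to 0.27, adjusted p = 0.995, edgeR) and -1.04 without Ctrl 1. Cd5, which encodes an inhibitory receptor of T cells and of some B cells (chromosome 19, 10717116 to 10739002, minus strand), differed least. It read 16.5 and 15.1 CPM in Il33flx, against 18.2 and 15.3 CPM in Ctrl. The groups overlapped, with a log2 fold change of -0.09 ± 0.22 SE (95% interval -0.63 to 0.45, adjusted p = 0.995, edgeR), and 0.05 without Ctrl 1.

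Levels of different genes were compared per length, as CPM per kilobase of annotated exons, averaged over the 4 libraries. On this scale the order of levels was Trbc2 (15.5), Lck (13.2), Trac (9.43), Trbc1 (7.29), Cd3d (3.79), Cd5 (3.30), Cd3e (2.49), Cd3g (2.23), Cd247 (1.10) and Thy1 (0.197). Among neighbours in this order, Trbc2 and Lck, Cd3d and Cd5, and Cd3e and Cd3g changed places in 1 of the 4 libraries, so their order was not fixed. The other neighbours kept their order in all 4 libraries. Trbc1 and Trbc2 were taken at full length, although 40.5% and 44% of their 50-base stretches occur in the other gene. Their places in the order, such as Trbc1 below Trac, are therefore uncertain. For Cd247 the level was 2.77 CPM per kilobase when only its unshared exonic bases were taken as its length, which would place it next to Cd3e. Thy1 stood at 0.0614 and 0.0805 of the level of Cd3e in Il33flx, against 0.0695 and 0.106 in Ctrl. The ratio of Lck to Cd3e was 4.89 and 5.75 in Il33flx, against 6.19 and 4.21 in Ctrl. Lck and Cd5 are also used by cells other than T cells, for example Lck by NK cells and Cd5 by some B cells. Which of the sorted cells held them was not tested.

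Other genes of T cell receptor signalling, many of them shared with other blood cells, had a median log2 fold change of -0.09 (-0.02 without Ctrl 1). Of 28 tested, 0 were called (0.00667% of all genes), 19 had a negative log2 fold change (48.2%), 6 were lower without overlap (14.9%) and 2 were higher (15.4%). Their log2 fold changes ran from -0.93 to 0.35, and the difference between the lists was not tested. The low end was that of Trat1, with 21 and 35 counts in Il33flx, against 27 and 87 in Ctrl. Lat, the adaptor that Zap70 phosphorylates, had 2.69 ± 0.37 CPM in Il33flx and 3.79 ± 0.66 CPM in Ctrl (SD, n = 2 each; log2 fold change -0.50 ± 0.33 SE). Prkcq, the kinase PKC-theta, had 6.33 ± 0.56 CPM in Il33flx and 8.66 ± 2.64 CPM in Ctrl. Vav1, an exchange factor of all blood cells and the most abundant gene of the list, had 458 ± 8.40 CPM in Il33flx and 565 ± 107 CPM in Ctrl. Nfatc2, a transcription factor activated by calcium, had 153 ± 19.8 CPM in Il33flx and 181 ± 2.97 CPM in Ctrl. The adjusted p was 0.995 for each of these 4 genes (edgeR). Without Ctrl 1 the log2 fold change was -0.30 for Lat, -0.09 for Prkcq against -0.45 with all libraries, -0.09 for Vav1 against -0.30, and -0.22 for Nfatc2 against -0.24. Without Il33flx 2 that of Nfatc2 was -0.09.

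Among 17 coreceptor and surface genes 0 were called (0.00667% of all genes) and 11 had a negative log2 fold change (48.2%). Lower without overlap were 5 (14.9%) and higher were 2 (15.4%), with a list median of -0.13 (-0.09 without Ctrl 1). Cd8b1 and Cd8a went opposite ways. Cd8b1, the CD8 beta chain of T cells, read 12.3 and 7.47 CPM in Il33flx, against 17.5 and 13.3 CPM in Ctrl (log2 fold change -0.64 ± 0.32 SE). Cd8a, the alpha chain, which type 1 conventional DCs of mouse lymphoid organs also express, read 436 and 438 CPM in Il33flx, against 387 and 346 CPM in Ctrl (log2 fold change 0.25 ± 0.17 SE). Neither had overlapping groups. Il2rb, a receptor chain for IL-2 and IL-15, read 14.8 and 11.1 CPM in Il33flx, against 24.9 and 15.8 CPM in Ctrl (log2 fold change -0.66 ± 0.30 SE). Ctla4, an inhibitory receptor, read 5.37 and 6.001 CPM in Il33flx, against 2.41 and 4.73 CPM in Ctrl (log2 fold change 0.67 ± 0.39 SE). The adjusted p was 0.995 for each of these 4 genes (edgeR). Without Ctrl 1 the log2 fold change was -0.42 for Cd8b1, 0.35 for Cd8a, -0.28 for Il2rb and 0.27 for Ctla4. Without Il33flx 2 that of Cd8b1 was -0.29, and without Il33flx 1 it was -1.05. Without Ctrl 2 that of Ctla4 was 1.23.

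Of 12 transcription factors of T cells 0 were called (0.00667% of all genes) and 6 had a negative log2 fold change (48.2%). Lower without overlap were 2 (14.9%) and higher were 0 (15.4%), with a list median of -0.06 (-0.11 without Ctrl 1). Satb1, a chromatin organizer of thymocytes, had 20.7 ± 0.90 CPM in Il33flx and 26.5 ± 3.97 CPM in Ctrl. Gata3, needed for T cell development, had 2.26 ± 0.69 CPM in Il33flx and 2.96 ± 0.33 CPM in Ctrl, and Foxp3, the factor of regulatory T cells, 1.39 ± 0.27 CPM in Il33flx and 1.97 ± 0.66 CPM in Ctrl. Tbx21, which encodes T-bet, had 19.7 ± 1.61 CPM in Il33flx and 16.6 ± 3.85 CPM in Ctrl. Runx3, the most abundant of the list and also used by DCs, had 59.0 ± 1.89 CPM in Il33flx and 58.6 ± 1.47 CPM in Ctrl (SD, n = 2 each). The adjusted p was 0.995 for the first 4 and 0.9999 for Runx3 (edgeR). Without Ctrl 1 the log2 fold change was -0.18 for Satb1 against -0.35 with all libraries, -0.26 for Gata3 against -0.39, -0.10 for Foxp3 against -0.50, 0.52 for Tbx21 against 0.25, and -0.01 for Runx3 against 0.01.

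Markers of other cell types also differed between the libraries, and their part in the results above was not tested. Of 8 mature DC genes the log2 fold change was negative in 7, against 48.2% of all genes. Their summed levels were 2300 to 2477 CPM in Il33flx and 2249 to 3559 CPM in Ctrl. Their median was -0.37, and 0.12 without Ctrl 1, the library that was highest for 7 of the 8 (34.2% of all genes). Of 10 B cell genes 9 were higher in Il33flx without overlap, against 15.4% of all genes, with summed levels of 159 to 189 CPM in Il33flx and 121 to 143 CPM in Ctrl and a median log2 fold change of 1.02 (1.26 without Ctrl 1). Of 8 erythroid genes 6 were higher without overlap (15.4% of all genes). Their list had summed levels of 13.4 to 31.0 CPM in Il33flx and 5.48 to 5.98 CPM in Ctrl. In Ctrl 1, 2 of the 8, Slc4a1 and Klf1, were at 0. The median of the 8 was 2.60, and 2.23 without Ctrl 1. Of 12 NK cell genes tested 4 had a negative log2 fold change (48.2% of all genes) and 2 were higher without overlap, near the 15.4% of all genes. The NK cell list had summed levels of 226 to 244 CPM in Il33flx and 210 to 257 CPM in Ctrl. Most of this sum came from Klrk1 (73.1 to 149 CPM over all libraries) and Ccl5 (53.1 to 97.9 CPM). Ncr1, by contrast, lay at 0.78 to 1.1 CPM. The median of the NK cell list was 0.18 (0.31 without Ctrl 1). In these 4 lists 0 genes were called in edgeR (0.00667% of all genes). DESeq2 called 3 B cell genes and 1 erythroid gene (0.346% of all genes), and the fit with a replicate block 2 erythroid genes (0.22%). No B cell, NK cell or mature DC gene tested was at 0 in a library. The direction of the B cell list was thus opposite to that of the T cell receptor genes. Of 10 conventional DC genes 6 had a negative log2 fold change, against 48.2% of all genes (median -0.07, and 0.02 without Ctrl 1). So did 2 of 6 plasmacytoid DC genes (median 0.12, and 0.23) and 4 of the 5 genes of the sort gate (median -0.16, and -0.03).

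Early T cell genes and ITAM adaptors of other receptors did not share the sign of the T cell receptor genes throughout. All 5 tested genes of the pre-T cell receptor and recombination had a positive log2 fold change (median 0.35, and 0.63 without Ctrl 1). Of all genes tested, 48.2% had a negative one. Of the 5, 2 were higher without overlap (15.4% of all genes) and 0 were called in edgeR (0.00667%). Of 5 ITAM adaptors of other receptors 3 had a negative log2 fold change (median -0.05, and -0.04 without Ctrl 1). Among the 5, 2 were higher without overlap (15.4% of all genes) and 0 were called in edgeR. Those 2 were Cd79a and Cd79b, the signalling chains of the B cell receptor, which the B cell list holds too.

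**Figure D4:**
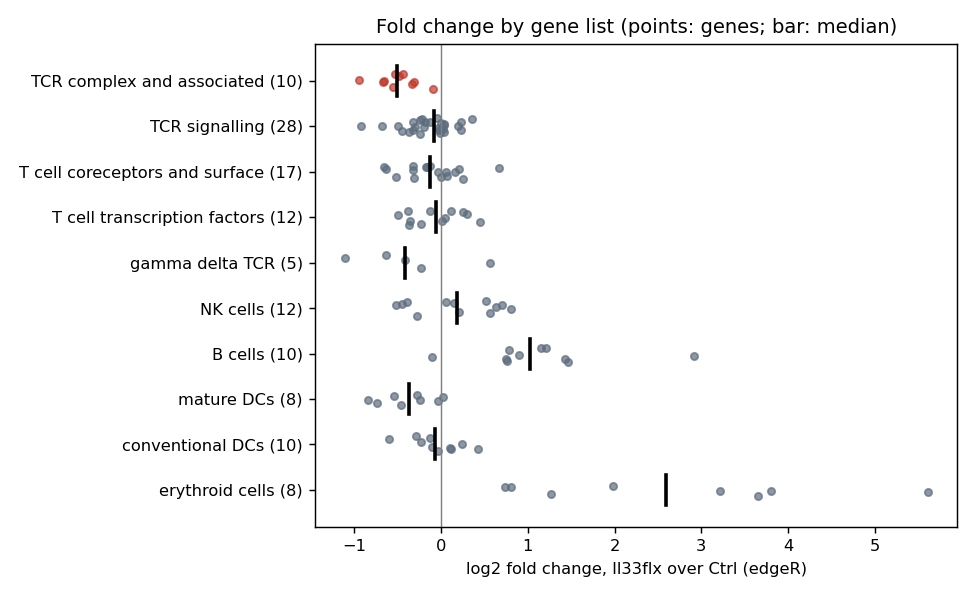
Log2 fold change, Il33flx over Ctrl (edgeR, all 4 libraries), of each tested gene (points, jittered vertically) by list, with the list median as a bar. The T cell receptor genes have a median of -0.51 and the B cell genes one of 1.02.

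Genes with library profiles most like the CD3 genes were ranked over the 4 libraries, by the root-mean-square difference of mean-centred log2 CPM from the summed CPM of Cd3e, Cd3d and Cd3g. That sum was 20.7 and 18.2 CPM in Il33flx, against 32.8 and 25.7 CPM in Ctrl. Of 8877 protein-coding genes of at least 5 CPM on no list, the 5 closest were Ficd (0.022), Rhof (0.055), Sdc3 (0.062), Fasn (0.066) and Sh3tc1 (0.068). Ficd, an enzyme of the endoplasmic reticulum that modifies the chaperone BiP, read 11.6 and 10.0 CPM in Il33flx, against 17.7 and 14.2 CPM in Ctrl. Sdc3, the proteoglycan syndecan-3, read 918 and 849 CPM in Il33flx, against 1354 and 1121 CPM in Ctrl. With 4 libraries many genes share an order, and 11.2% of all genes tested had Ctrl 1 above Ctrl 2 above both Il33flx libraries. By the root-mean-square difference, 44 of the 8877 lay within 0.1.

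The authors' deposited table listed all 10 genes. In it the log2 fold changes of Il33flx over Ctrl ran from -0.97 for Thy1 to -0.11 for Cd5, with -0.68 for Cd3e (unadjusted p = 0.0348) and -0.70 for Lck (unadjusted p = 0.0515), and the adjusted p of each of the 10 was 1. The authors' deposited table called 0.34% of its 15001 genes at an adjusted p below 0.05.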

How the data were processed

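Gene counts and the authors' own comparison were available for the 4 libraries. The counts were whole-number reads per gene, deposited without normalization; the submitters' processing notes name build GRCm38 and the tools Trimmomatic (0.39), STAR, HTSeq and DESeq2, and for other versions, annotation release and strand setting the sources used here give nothing. In the authors' deposited table, the per-library signal columns were those counts divided by 1 size factor per library (checked against the counts), the log2 columns their fold change and its error, the score column their Wald statistic, and the p-value columns their unadjusted and adjusted p-values. Of all counted reads, 69.9% to 72.2% lay in genes and 21.9% to 23.1% did not align uniquely. The 5 HTSeq summary rows stayed out of library sizes. GENCODE M21 named 45143 of the 46078 gene rows.

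Il33flx was compared with Ctrl by edgeR 4.0.16 in R 4.3.3 (glmQLFit and glmQLFTest, filterByExpr, TMM, no covariate, Benjamini-Hochberg over all genes tested, called below 0.05), with each standard error taken as the size of the effect divided by the square root of F. DESeq2 1.42.0 was an alternative, and the procedure was tested on simulated data. With 2 libraries against 2 an exact permutation test has a smallest two-sided p of 0.333 and was not used. For a gene at 0 the upper limit, 3 counts, was 0.0369 to 0.0443 CPM. Replicates differed by more than sampling noise.

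The genes and lists were chosen with earlier results of these data known. Named are the 10 genes, from each list of T cell genes up to 4 with the smallest p and the most abundant, the 3 variable, diversity or joining segments with the highest counts and the 5 closest profiles. Trbv1 is named besides as a leading segment, and Trat1 as the low end of its list. Lists of other cell types are given by counts, and Klrk1, Ccl5 and Ncr1 are named for their part in the NK cell sum.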

Additional observations from a re-analysis of the deposited data

How the results depend on the processing

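No alternative called any of the 10 genes, so their number called stayed at 0 in each of the 10 settings run. The number of genes called over the whole table was 1, and it was 0 with library size alone, 0 with no filter on low counts, 53 with DESeq2 and 33 with the replicate number as a block. With 1 library left out it ranged from 0 to 36. Deviations from the group means correlated at -0.03 for the same replicate number in both groups. With 2 libraries a group, and Ctrl 1 apart from the others, this cannot show whether the numbers pair the libraries. With the block the median of the 10 genes was -0.49 against -0.51.

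Leaving out 1 library moved that median between -0.71 and -0.17 and the log2 ratio of the summed CD3 genes between -0.76 and -0.32, and both values nearest 0, -0.17 and -0.32, came without Ctrl 1. Signs that turned were all of uncalled values. Trac ranged from -0.68 to 0.13, Cd5 from -0.22 to 0.053, with 0.0051 without Il33flx 2, Runx3 from -0.026 to 0.071, with -0.0084 without Ctrl 1, Tcrg-C1 from -1.75 to 0.064, Trbv13-2 from -0.78 to 0.15 and Trgv2 from -1.69 to 2.04 with 1 library left out. Trgv2 was at 0.020 with the block. Runx3, at 0.0088, was at -0.0090 with the size factors of DESeq2 in edgeR, -0.0012 with no filter and -0.016 with DESeq2. The cause was not tested. The filter of 1 CPM in 2 libraries removed Thy1, so no value is given for it there. With 2 libraries a group the 95% intervals were wide, from -0.63 to 0.45 for Cd5 and from -2.16 to 0.27 for Thy1, the gene with the lowest counts.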
